A study of Saccharomyces cerevisiae with 75 samples.

Results

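On yeast splicing arrays, 8 genes of the secretory pathway were followed: SAR1, ERD2, USE1, YIP3, BET1, BOS1, APS3 and ARF2. They were chosen by gene symbol in the array's probe annotation, and are 8 of the 982 genes named there. Together they carry 22 of the 1536 probes, of which 1457 have a gene name and 79 have none. SAR1, ERD2, YIP3, BET1, BOS1, APS3 and ARF2 have 3 probes each, and USE1 has 1. Every printed probe was kept apart, and ERD2 was set against the other genes.

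Proteins leave the endoplasmic reticulum in COPII-coated vesicles, fuse with the Golgi through SNARE proteins, and are sorted onward by adaptor complexes, while escaped residents are carried back. SAR1 encodes the small GTPase that starts the COPII coat, and ARF2 an ADP-ribosylation factor GTPase that recruits coats at the Golgi. BET1 and BOS1 are SNAREs of transport from the endoplasmic reticulum to the Golgi, USE1 is a SNARE of the way back, and YIP3 is a COPII vesicle protein that binds Rab GTPases. APS3 is the small subunit of the AP-3 adaptor on the route from the Golgi to the vacuole. ERD2 is the receptor that retrieves proteins with an HDEL tail from the Golgi. SAR1, ERD2, YIP3, BET1, BOS1 and APS3 are known to carry introns, which are rare among yeast genes, so their transcripts pass through the spliceosome.

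Each array compared total RNA of 2 Saccharomyces cerevisiae strains, labelled with Cy5 or Cy3, after acid phenol extraction and aminoallyl labelling. The strains lacked npl3, gbp2, hrb1, gbp2 and hrb1, upf1, or npl3 and upf1, and were set against a matched wild type (WT) or against each other. NPL3, GBP2 and HRB1 encode SR-like RNA-binding proteins, and UPF1 a factor of nonsense-mediated decay, the pathway that degrades transcripts with premature stop codons. One strain is labelled Dupf1+Dnpl3, which the sources used here do not explain further. Cultures were at 30 °C with no time given, at 16 °C for 30 min, or at 37 °C for 15, 30 or 45 min. In all, 73 arrays formed 37 extract pairs in 21 groups, of which 36 pairs were hybridised in both dye orientations and 1 on a single array. npl3 against WT had 7 pairs at 30 °C, 6 at 37 °C for 30 min, 2 at 37 °C for 15 min, and 1 each at 16 °C and at 37 °C for 45 min. The gbp2 and hrb1 strains had 1 pair each at 30 °C and 2 each at 37 °C for 30 min, and the gbp2 hrb1 double deletion had 2 at each temperature. Each comparison with a upf1 deletion had 1 pair. The other 2 arrays set prp2-1 against prp5-1 or prp8-1, all of them temperature-sensitive splicing mutants, at 37 °C for 30 min. Neither of these arrays holds a WT. The labels do not say whether the pairs of a group are separate cultures. The spread behind each p-value is that between these pairs and may be technical.

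All values below are log2 ratios, and a positive value means more signal in the strain named first. The table does not state this direction, which was taken from the labels and from how the deleted genes' own probes read. In bulk RNA, fewer cells with a transcript and less of it per cell cannot be told apart. Of the 9216 spots, between 0.184% and 35.4% had no value on an array (median 3.90%), and dye-flipped arrays of a pair correlated over all probes between -0.36 and 0.84 (median 0.30, below 0 in 10 of 36 pairs). The NPL3 probe was below 0 in the npl3 pairs against WT, with 1 exception. It read -0.86 in replicate 1 at 37 °C for 15 min, -0.63 in the pair at 45 min, and -2.19 to -1.59 in the other pairs below 0. In the pair labelled npl3 over WT, 30 °C, replicate 3, it was 1.47, and over all probes that pair correlated with the other 30 °C pairs at -0.66 to -0.45, while those correlated among themselves at 0.41 to 0.71. That pair was kept as labelled, and the comparison of npl3 with WT at 30 °C is also given without it and with its sign turned.

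Each probe was spotted 6 times. For 230 genes, the 7 genes with 3 probes among them, the print order holds 3 probes in a fixed layout. What each probe matches (an intron, a splice junction or an exon) could not be read from the sources used here, so the probes are called 1, 2 and 3 by print order. The probe contrast of a gene is the log2 ratio of probe 2 minus that of probe 3, which does not depend on a change shared by the whole transcript. Differences were tested with limma over all 37 pairs, and "called" means a Benjamini-Hochberg adjusted p under 0.05 over all 1536 probes or all 230 contrasts. Where a comparison had 1 pair, that pair was assumed to vary like the other groups.

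In the npl3 strain at 37 °C, RNA signal was higher than in WT on some probes of the secretory genes and lower on none. After 30 min at 37 °C, 7 of the 22 probes were called higher and 0 lower. Over all 1536 probes, 26.4% were called in either direction, 203 higher and 202 lower. The 7 lay in SAR1, ARF2, USE1, YIP3 and ERD2, while no probe of BET1, BOS1 or APS3 was called. After 15 min, 5 of 22 were called, against 4.17% of all probes, and at 30 °C only USE1 was called, against 4.3%. The median over the 22 probes was 0.11 at 37 °C for 30 min, beside -0.02 over all probes.

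**Figure D1:**
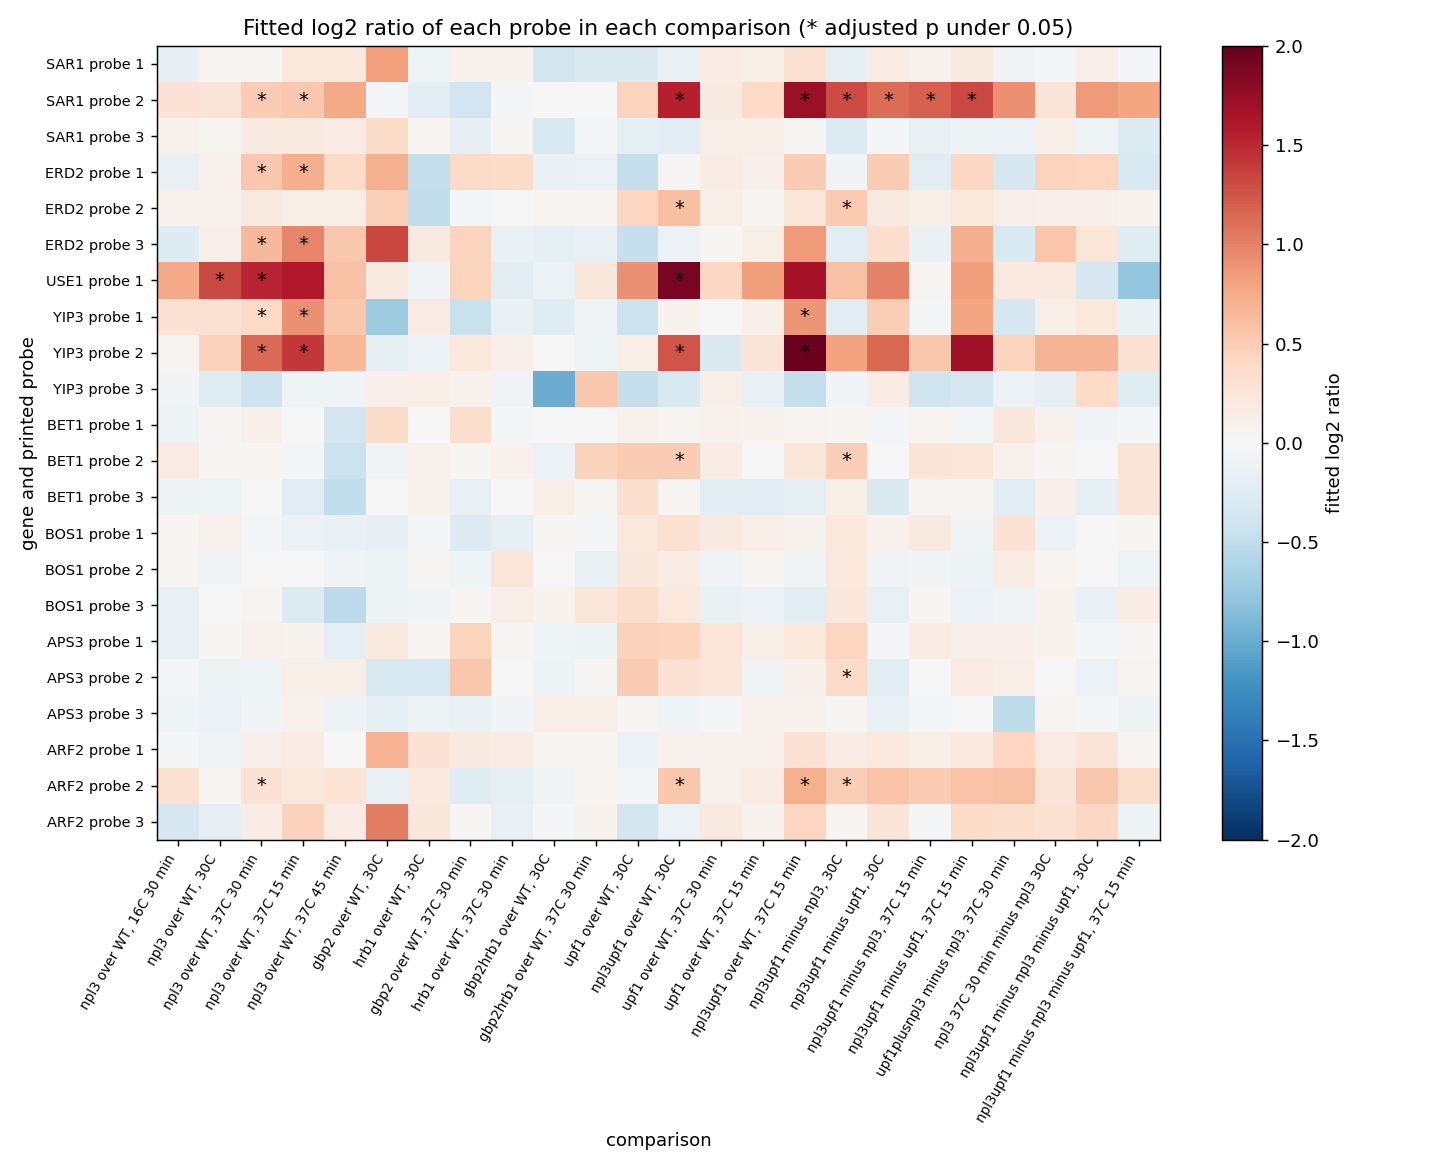
Fitted log2 ratio of each of the 22 probes (rows, gene and probe by print order) in each comparison (columns), with red for more signal in the first strain, blue for less, and an asterisk for an adjusted p under 0.05. Asterisks stand only in columns with an npl3 deletion, most of them on USE1, SAR1 probe 2, YIP3 probes 1 and 2, ARF2 probe 2, and ERD2.

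SAR1, the COPII GTPase, was higher on probe 2 and not called on its other probes. In the 6 pairs at 37 °C for 30 min probe 2 lay at 0.44, 0.70, 0.91, 0.72, 0.26 and 0.05, so that every pair was above 0. Its fitted ratio was 0.51 ± 0.11 (SE), or 1.43-fold, with an adjusted p of 0.00108. On arrays with the first strain in Cy5 alone, SAR1 probe 2 was at 0.38 and not called (limma, adjusted p = 0.0842). Probes 1 and 3 of SAR1 spread around 0 in the same pairs, from -0.29 to 0.48 and from -0.23 to 0.69. The SAR1 contrast was 0.33 ± 0.14 (SE, adjusted p = 0.0453), near the middle of the 230 genes. That call was lost in 15 of the 37 fits that left out 1 pair, among them those without replicate 2, 3, 4, 5 or 6 (0.28, 0.25, 0.35, 0.33 and 0.34), with an adjusted p of up to 0.158. It was also lost with batch as a random block, at 0.33 (adjusted p = 0.054).

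At 15 min the pairs of SAR1 probe 2 were 0.72 and 0.40, and its fitted ratio of 0.53 ± 0.15 (SE) was called, with an adjusted p of 0.0427. The call was lost in 14 of the 37 fits that left out 1 pair, at 0.44 and 0.60 without either 15 min pair, and with batch as a random block, at 0.48 (adjusted p = 0.0988). At 30 °C the 7 pairs ran from -0.17 in the contrary replicate 3 to 0.67, with a median of 0.27. The fitted ratio there was 0.26 as labelled (adjusted p = 0.128), 0.33 without replicate 3 (adjusted p = 0.0177) and 0.30 with that pair turned (adjusted p = 0.0126).

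ARF2, the Golgi GTPase, changed less. Its probe 2 was above 0 in 6 of 6 pairs at 37 °C for 30 min, from 0.11 to 0.57 with an SD of 0.18, and was called at 0.30 ± 0.10 (SE, adjusted p = 0.0245). The call was lost without replicate 1, 2 or 4, at 0.27, 0.24 and 0.28. Probes 1 and 3 of ARF2 ranged from -0.22 to 0.52 and from -0.36 to 0.72 in those pairs and were not called. RPL35B, a ribosomal protein gene and the neighbour of ARF2 on its chromosome, is the one direct neighbour of the 8 genes that is on the array. Probe 2 of RPL35B was called higher, at 0.82 (adjusted p = 0.00293), with its probes 1 and 3 at -0.19 and -0.29. Over all 230 genes with 3 probes, the medians at that time were 0.21 on probe 2, -0.08 on probe 1 and -0.17 on probe 3. A link between ARF2 and RPL35B was not tested.

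Among the SNARE genes, USE1 had the largest ratio of the 22 probes, and BET1 and BOS1 had none called. USE1, a SNARE of traffic back to the endoplasmic reticulum, lay at 0.27, 2.74, 1.38, 1.80, 0.74 and 2.18 in the 6 pairs at 37 °C for 30 min. All 6 were above 0, although they spanned more than 2 log2 units (SD 0.91). The fitted ratio was 1.52 ± 0.35 (SE), or 2.87-fold, with an adjusted p of 0.00242, and the call held in each of the 37 fits that left out 1 pair.

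At 30 °C the USE1 probe read 0.68, 2.59, -1.44, 1.22, 2.01, 2.38 and 1.61 in replicates 1 to 7. Replicate 3, whose NPL3 probe went against its label, was the one pair below 0. USE1 was fitted at 1.32 ± 0.31 (SE, adjusted p = 0.0163) with that pair as labelled, at 1.74 without it (adjusted p = 6.3e-06) and at 1.698 with it turned (adjusted p = 1.5e-06). As labelled, the call was lost when replicate 2, 4, 5, 6 or 7 was left out, at 1.13, 1.33, 1.21, 1.16 and 1.27. The 15 min pairs were 2.36 and 1.25, for a fitted ratio of 1.61 that missed the threshold (adjusted p = 0.0526). With 1 probe, USE1 has no contrast, so nothing within the gene could be compared.

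Both dye orientations of a pair gave USE1 the same sign in 34 of 36 flipped pairs, more often than any other of the 22 probes. Over these probes, 416 of the 791 flipped values shared their sign, and for APS3 probe 2 it was 8 of 36. The mean distance of an orientation from its pair's value was 0.19 for USE1 and 0.31 for YIP3 probe 3, which is as large as many of the ratios that were not called.

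BET1 and BOS1, the SNAREs of the outward step, stayed near 0. BET1 probe 2 ranged from -0.34 to 0.46 in the 6 pairs at 37 °C for 30 min and BOS1 probe 2 from -0.18 to 0.16. Fitted ratios of their 6 probes at that time lay between -0.03 and 0.10, with adjusted p from 0.296 to 0.982. Their contrasts were 0.03 ± 0.13 and -0.06 ± 0.13 (SE), the 39th and the 26th lowest of the 230 genes.

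YIP3, the Rab-binding vesicle protein, showed the largest contrast of the 7 genes with 3 probes. Probe 2 read 0.41, 1.35, 0.64, 2.44, 1.09 and 0.88 at 37 °C for 30 min, above 0 in every pair, and was fitted at 1.14 ± 0.22 (SE), or 2.20-fold, with an adjusted p of 0.000499. Probe 1 was lower, from -0.27 to 1.44, and called at 0.40 ± 0.14 (SE, adjusted p = 0.0365), a call lost without replicate 3, 4, 5 or 6. Those values of probe 1 were 0.38, 0.19, 0.38 and 0.40, and with batch as a random block it was also not called, at 0.37 (adjusted p = 0.0571). Arrays with the first strain in Cy5 alone gave 0.28 for probe 1 and no call. Probe 3 of YIP3 was below 0 in 5 of 6 pairs but not called, at -0.42 ± 0.23 (SE, adjusted p = 0.184).

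The YIP3 contrast was 0.65, 1.36, 0.34, 2.60, 1.31 and 3.05 in those pairs and 1.55 ± 0.33 (SE, adjusted p = 0.000375) in the fit, the 13th highest of the 230. Its highest value, in replicate 6, came with a probe 3 value of -2.17 that rests on 4 spots of the single array of that pair. Leaving replicate 6 out gave the lowest contrast of the 37 such fits, 1.25, still called. At 15 min the contrast was 1.47 and 1.77 in the pairs and 1.49 ± 0.46 (SE, adjusted p = 0.0407) in the fit, and the call was lost without either pair (1.51 and 1.36) and in 5 of the other fits that left out 1 pair, and with batch as a random block, at 1.49 (adjusted p = 0.0818). Probes 1 and 2 of YIP3 were called at 15 min too, at 0.91 ± 0.20 and 1.41 ± 0.30 (SE), from pairs of 1.07 and 0.90 and of 1.48 and 1.67, and both lost their call without either pair (0.83 and 0.92, and 1.38 and 1.28). At 30 °C the contrast ran from -1.19 in replicate 3 to 2.02 (median 1.13) and was fitted at 0.70 (adjusted p = 0.0728), at 0.99 without replicate 3 (adjusted p = 0.0023) and at 1.02 with it turned (adjusted p = 0.00062).

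APS3, the AP-3 subunit, had no probe called in npl3 against WT. Its probe 1 ranged from -0.26 to 0.58 at 37 °C for 30 min, its probe 2 from -0.29 to 0.06 and its probe 3 from -0.56 to 0.22. The APS3 contrast was -0.03 ± 0.15 (SE).

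ERD2, the HDEL receptor, moved the other way round within the gene: probes 1 and 3 were higher and probe 2 was not called. At 37 °C for 30 min, probe 1 read 0.14, 1.01, 0.69, 0.96, 0.19 and 0.20 and was fitted at 0.53 ± 0.13 (SE), or 1.45-fold, with an adjusted p of 0.00483. Probe 3 read -0.25, 1.69, 0.73, 1.21, 0.11 and 0.39 and was fitted at 0.65 ± 0.17 (SE), or 1.57-fold, with an adjusted p of 0.00649. Both were highest in replicates 2, 3 and 4 and close to 0 in replicates 1 and 5. Without replicate 2, probe 3 was at 0.44 and no longer called (adjusted p = 0.055). Probe 3 was also not called on arrays with the first strain in Cy5 alone, at 0.445 (limma, adjusted p = 0.0759).

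Probe 2 of ERD2 read 0.11, 0.80, -0.20, 0.23, 0.07 and 0.10 in those pairs, for a fitted ratio of 0.18 ± 0.10 (SE, adjusted p = 0.156). At 15 min probe 1 read 1.25 and 0.30, probe 2 read 0.19 and 0.15, and probe 3 read 1.495 and 0.59. Probes 1 and 3 were called there, at 0.72 ± 0.19 and 0.98 ± 0.24 (SE, adjusted p = 0.0307 and 0.0202). Without the higher pair they were at 0.46 and 0.72 and not called, and probe 1 was also not called without any 1 of the 4 upf1 pairs at 15 min (0.74 or 0.75) or with batch as a random block (0.73, adjusted p = 0.0533).

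Over the 37 pairs, probes 1 and 3 of ERD2 correlated at 0.86, and each correlated with probe 2 at 0.37 and 0.33. The pairs share arrays and dyes, so this is a description.

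**Figure D2:**
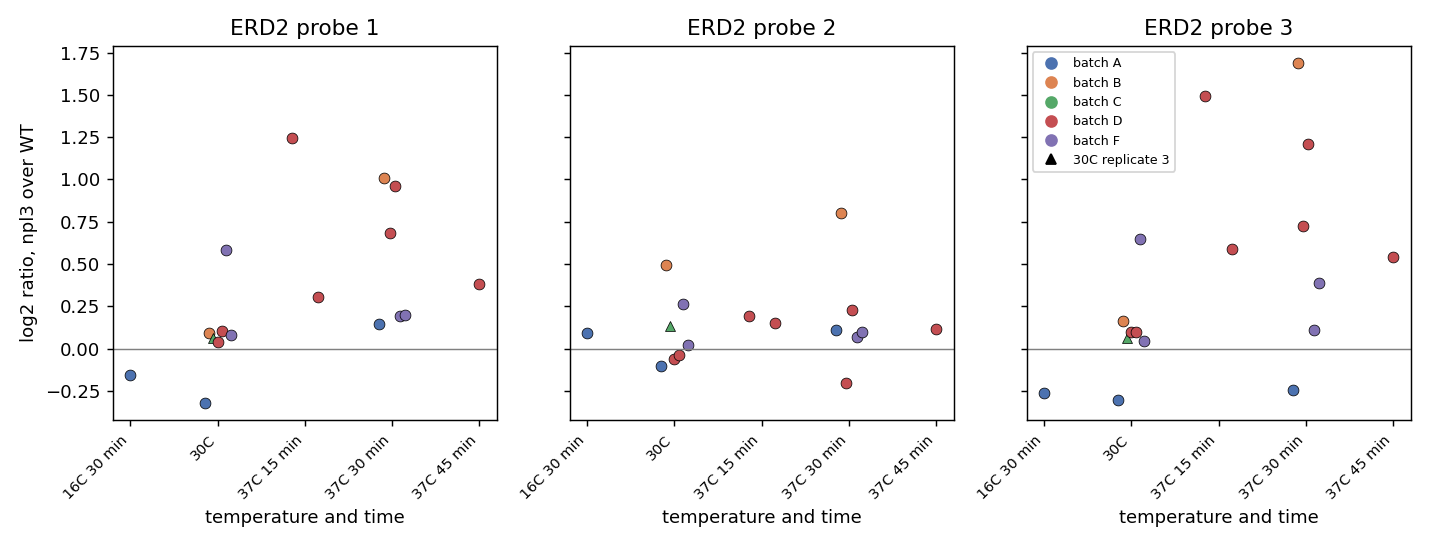
Log2 ratio, npl3 over WT, of ERD2 probes 1 to 3 (panels), 1 point per extract pair by temperature and time, coloured by the batch in the array titles, with a triangle for replicate 3 at 30 °C. At 37 °C for 30 min probe 3 spans -0.25 to 1.69, with the 3 highest points in batches B and D, while probe 2 stays between -0.20 and 0.80.

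The ERD2 contrast was therefore negative at 37 °C, where most genes had a positive one. It read 0.36, -0.89, -0.93, -0.99, -0.04 and -0.29 at 30 min, below 0 in 5 of 6 pairs, and was fitted at -0.46 ± 0.16 (SE, adjusted p = 0.0151). Only 3 of the 230 genes lay lower, and the median over all 230 was 0.44. In the 15 min pairs it was -1.30 and -0.44, and the fitted -0.84 ± 0.22 (SE, adjusted p = 0.0235) was the lowest of the 230 genes. The pair at -1.30, replicate 1, had its NPL3 probe at -0.86, beside -1.64 in the other.

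The ERD2 call depended on single pairs. At 30 min it was lost without replicate 2, 3 or 4, at -0.38, -0.37 and -0.36, and with only the arrays that had npl3 in Cy5, at -0.20 (adjusted p = 0.41), beside -0.82 with npl3 in Cy3. By batch, a prefix shared by array titles, the contrast was 0.36 in batch A and -0.89 in batch B (1 pair each), and -0.96 in batch D and -0.17 in batch F (2 pairs each). At 15 min, where both pairs of npl3 against WT are in batch D, it was lost without either of them, at -0.61 and -1.05. Without any 1 of the 4 upf1 pairs at 15 min it was at -0.85 or -0.86, with an adjusted p of up to 0.0544. With batch as a random block the 30 min contrast kept its call, and the 15 min contrast lost it, at -0.77 (adjusted p = 0.0692).

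At 30 °C the ERD2 contrast ran from -0.39 to 0.33 with a median of -0.03, and its fitted value was -0.02, or -0.03 without replicate 3 and -0.04 with it turned. Probe 3 of ERD2 lay there between -0.30 and 0.65, and probe 1 between -0.32 and 0.58.

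**Figure D3:**
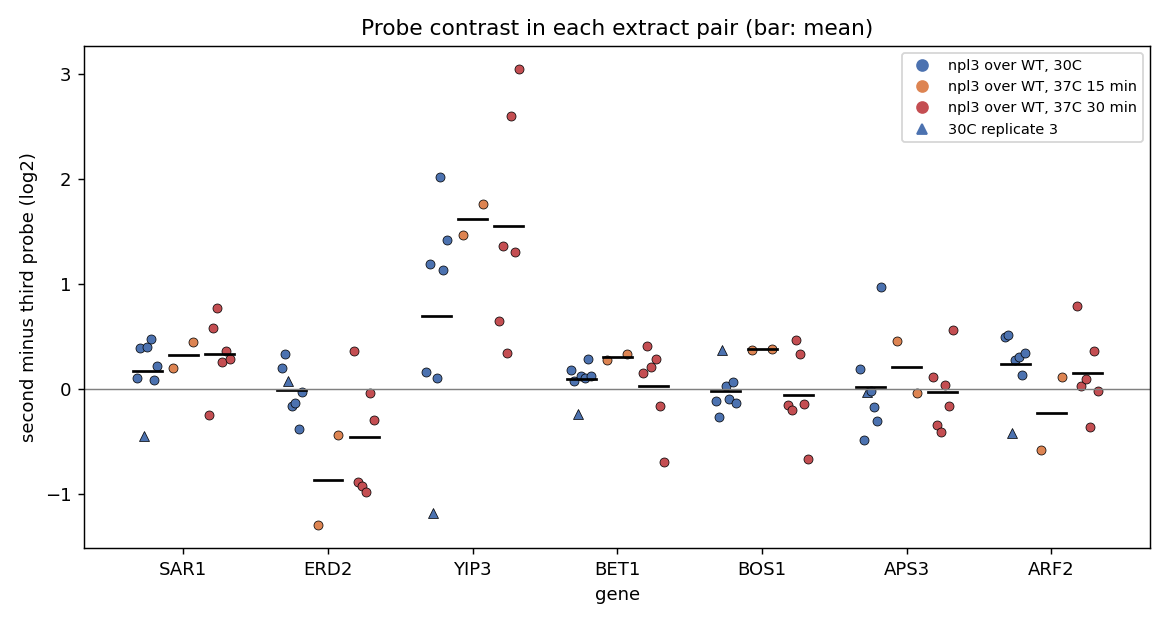
Probe contrast (probe 2 minus probe 3, log2) of the 7 genes with 3 probes in each extract pair of npl3 over WT at 30 °C, at 37 °C for 15 min and at 37 °C for 30 min, with a bar at the mean and a triangle for replicate 3 at 30 °C. YIP3 reaches 3.05 and ERD2 falls to -1.30, while BOS1, APS3 and BET1 scatter around 0.

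Counted over the 7 genes, 3 contrasts were called at 37 °C for 30 min, against 53.5% of all 230. SAR1 and YIP3 were higher and ERD2 lower, and of all called contrasts 120 were higher and 3 lower. The median over the 7 genes was 0.03, beside 0.44 over all 230. At 15 min, 2 contrasts were called, YIP3 higher and ERD2 lower, against 10.4% of all genes. As labelled, limma called 0 of 7 at 30 °C (1 at an unadjusted p under 0.05), against 25.7%. Without replicate 3 it called ARF2 (0.30), SAR1 (0.30) and YIP3 (0.99), against 48.3% of all genes, and with that pair turned the same 3, at 0.31, 0.32 and 1.02, against 54.8%.

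**Figure D4:**
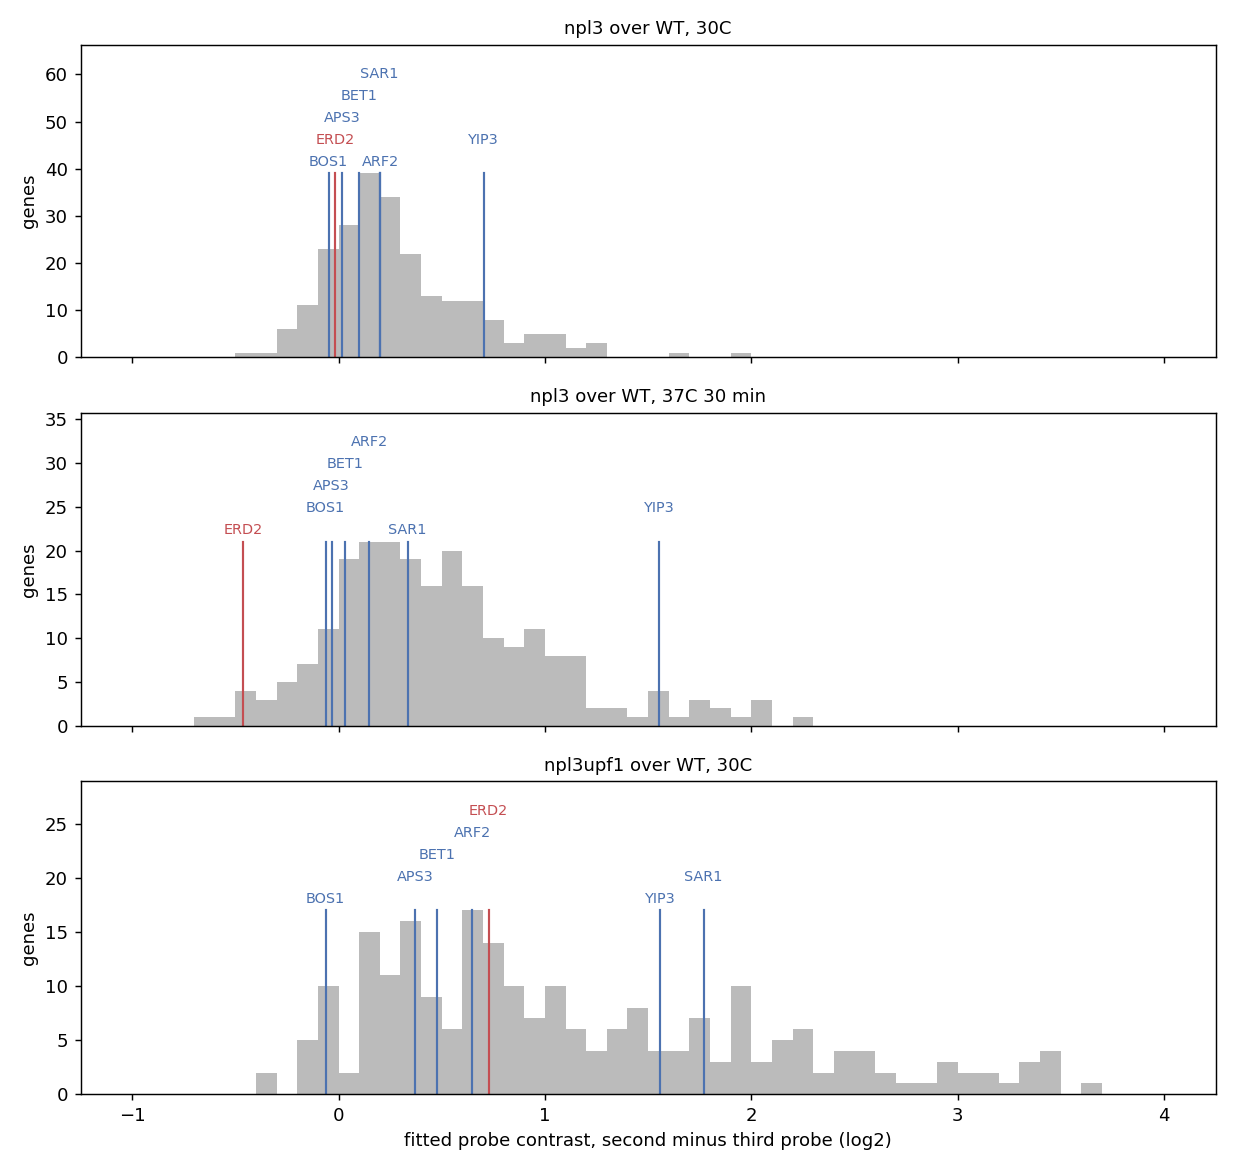
Distribution of the fitted probe contrast (log2) over the 230 genes with 3 probes (grey bars, number of genes) in 3 comparisons, with lines at the secretory genes (ERD2 in red). At 37 °C for 30 min ERD2 lies at -0.46 in the lower tail and YIP3 at 1.55 in the upper, and in npl3upf1 over WT at 30 °C ERD2 lies at 0.73, above the lower part of the genes.

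Each gene's contrast was next set directly against that of ERD2 in the same pairs. After 30 min at 37 °C, 4 of the 6 other genes exceeded ERD2, against 83.8% of all 229 genes: YIP3 by 2.02 ± 0.36, SAR1 by 0.80 ± 0.23, ARF2 by 0.61 ± 0.17 and BET1 by 0.49 ± 0.22 (SE), with adjusted p from 2.2e-05 to 0.0403. BOS1 and APS3 differed from ERD2 by 0.40 ± 0.22 and 0.43 ± 0.22 and were not called. BET1 was above ERD2 in 3 of 6 pairs, from -0.41 to 1.29. The count of 4 was 2 on the pairs of this comparison alone, 2 on arrays with npl3 in Cy5 alone, and 1 with probe 1 minus probe 3. At 15 min all 6 exceeded it, by 0.59 to 2.34, against 95.6% of all genes. Most of the 229 other genes with 3 probes thus also differed from ERD2. ERD2 had the lowest contrast of all at 15 min, so every difference there was above 0 in advance. At 30 min it had the 4th lowest, so most differences, those of the 6 other genes among them, were also above 0 in advance. All differences subtract the same ERD2 values and are not separate results.

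At 30 °C limma called 0 of 6 differences from ERD2 (YIP3 alone had an unadjusted p under 0.05), against 11.4% of all genes. The largest there was YIP3, at 0.72 ± 0.32 (SE). YIP3 was called without replicate 3, at 1.02 (adjusted p = 0.0061), against 31.4% of all genes, and with it turned, at 1.05 (adjusted p = 0.0016), against 36.7%.

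The ratio of npl3 over WT at 37 °C for 30 min was tested against the same ratio at 30 °C. A change with temperature that both strains share cancels in these ratios and was not measured. limma called 0 of 22 probes and 0 of 7 contrasts (3 and 1 at an unadjusted p under 0.05), and it called 0% of all probes and 0% of all contrasts. ERD2 had a difference of 0.44 ± 0.18 on probe 1, 0.55 ± 0.23 on probe 3 and -0.45 ± 0.21 on the contrast (SE), the second lowest contrast of the 230 (adjusted p = 0.526). YIP3 differed by 0.85 ± 0.43 (SE) on the contrast and SAR1 by 0.14 ± 0.19. By batch, the ERD2 contrast was 0.20 at 30 °C and 0.36 at 37 °C in batch A, 0.33 and -0.89 in batch B, -0.15 and -0.96 in batch D, and -0.21 and -0.17 in batch F. It was thus lower at 37 °C in batches B and D and not in A and F. The counts were also 0 without replicate 3 at 30 °C and with it turned, where the ERD2 difference was -0.43 in both.

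The 1 pair at 16 °C and the 1 at 37 °C for 45 min gave 0 called probes of 22, against 0% of all probes in each (0 and 4 of the 22 at an unadjusted p under 0.05). At 16 °C USE1 was at 0.76 and the ERD2 contrast at 0.36. At 45 min SAR1 probe 2 was at 0.75, YIP3 probe 2 at 0.66, USE1 at 0.59, ERD2 probe 3 at 0.54 and the ERD2 contrast at -0.42. No contrast of the 7 genes was called at either, against 0.435% of all genes at 16 °C and 0% at 45 min.

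Without GBP2, HRB1 or both, no probe of the 8 genes was called. limma called 0 of 22 probes for gbp2 at 30 °C, against 0.846% of all probes, and at 37 °C for 30 min, against 0.195%. For hrb1 it was 0 of 22 at 30 °C, against 0.0651%, and at 37 °C, against 0.26%. For the double deletion it was 0 of 22 at 30 °C, against 0.195%, and at 37 °C, against 0.391%. At an unadjusted p under 0.05 there were 7 and 5 probes for gbp2, 1 and 0 for hrb1, and 2 and 1 for both, in that order of temperatures. Contrasts gave 0 of 7 throughout, against 0.435% of all genes for hrb1 at 30 °C and 0% in each of the other 5 comparisons. Dye-flipped arrays correlated over all probes at -0.22 for hrb1 at 30 °C, and at -0.16 and -0.36 at 37 °C. The gbp2 pairs had 0.33 at 30 °C, and 0.50 and -0.31 at 37 °C. Those of the double deletion had -0.28 and 0.51 at 30 °C, and -0.29 and 0.27 at 37 °C. A lack of calls in such pairs does not show that these probes were unchanged.

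The gbp2 values of ERD2 varied from pair to pair. Its contrast was -0.86 in the 1 gbp2 pair at 30 °C, the 6th lowest of the 230, and -0.68 in the 1 hrb1 pair at 30 °C, the second lowest, neither of them called. In that hrb1 pair the HRB1 probe was at -0.43, beside -1.35 and -1.72 in the hrb1 pairs at 37 °C. In that gbp2 pair the GBP2 probe was at -2.72 and the NPL3 probe at -0.65. In the gbp2 pairs at 37 °C the ERD2 contrast was -0.86 in batch B and -0.09 in batch D. The 1 gbp2 pair at 30 °C had ERD2 probes 1 and 3 at 0.72 and 1.34 and ARF2 probes 1 and 3 at 0.70 and 1.02. Of the gbp2 pairs at 37 °C, the one in batch B had ERD2 probe 3 at 0.88 and the one in batch D at 0.00. USE1 was at 1.15 and -0.25 in those pairs, and between -0.47 and 0.53 in every pair of hrb1 and of the double deletion. YIP3 probe 3 reached -1.80 in 1 gbp2 hrb1 pair at 30 °C and 1.17 in 1 at 37 °C, from 6 and 5 spots over both arrays of the pair.

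Joint loss of npl3 and upf1 raised SAR1 more than loss of either alone. SAR1 probe 2 was at 1.72 in the npl3upf1 pair against WT at 30 °C and at 1.6996 in the pair at 37 °C for 15 min, while its probes 1 and 3 lay between -0.28 and 0.32. Set directly against npl3, it was 1.22 at 15 min, and npl3 over npl3upf1 at 30 °C read -1.40, the same direction. Against upf1 at 30 °C it was 0.85. In the upf1 strain against WT, SAR1 probe 2 was at 0.38 at 15 min and 0.17 at 30 min.

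SAR1 probe 2 was fitted at 1.56 ± 0.17 (SE), or 2.94-fold, over WT at 30 °C (adjusted p = 3.4e-07), and at 1.72 ± 0.20 (SE) at 15 min (adjusted p = 1.7e-06). npl3upf1 minus npl3 was 1.297 ± 0.168 at 30 °C (SE, adjusted p = 4.3e-06) and 1.19 ± 0.20 at 15 min (SE, adjusted p = 0.000672). npl3upf1 minus upf1 was 1.12 ± 0.20 at 30 °C (SE, adjusted p = 0.00221) and 1.32 ± 0.26 at 15 min (SE, adjusted p = 0.00989). No pair set npl3upf1 against upf1 at 15 min, so that value rests on pairs with WT and npl3. Neither value against upf1 was followed in the fits that left out 1 pair or turned replicate 3. The value against npl3 at 15 min lost its call when its direct pair was left out (1.16, adjusted p = 0.162), and the one at 30 °C kept its call in 37 of 37 such fits.

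Whether both deletions together exceed the sum of the single ones was tested with an added contrast, chosen after the data had been seen. For the SAR1 contrast, npl3upf1 minus npl3 minus upf1 was 0.95 ± 0.30 at 30 °C (SE, adjusted p = 0.191) and 1.06 ± 0.40 at 15 min (SE, adjusted p = 0.967). limma called 0 of 22 member probes and 0 of 7 contrasts at both times (2 and 1 probes, and 1 and 1 contrasts, at an unadjusted p under 0.05), against 0.0651% of all probes at 30 °C, 0% at 15 min, and 0% of all contrasts at both.

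**Figure D5:**
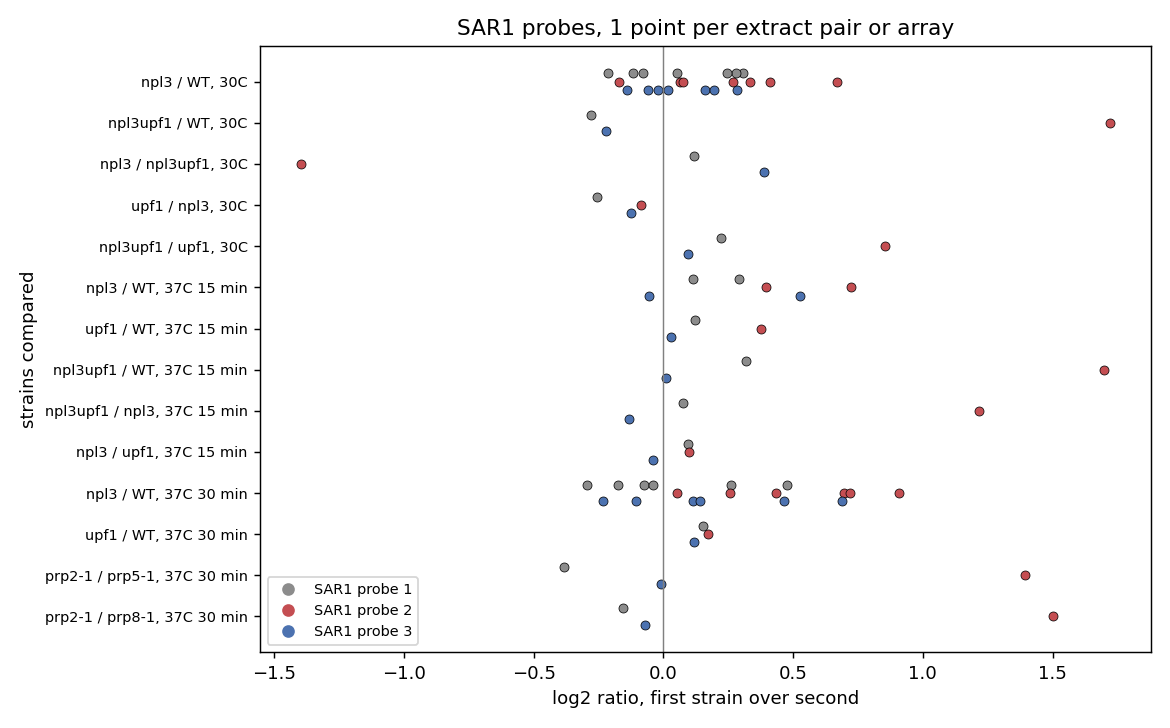
Log2 ratio (first strain over second) of SAR1 probes 1 to 3, 1 point per extract pair or prp2-1 array, with the strains compared on the vertical axis. Probe 2 stands apart at 1.72 and 1.6996 in npl3upf1 over WT, at -1.40 in npl3 over npl3upf1, and at 1.39 and 1.502 on the prp2-1 arrays, with probes 1 and 3 near 0 there.

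Besides SAR1, probes of 5 secretory genes were called in npl3upf1 over WT at 30 °C, a share close to that of the array. In all, 6 of 22 probes were called, against 21.5% of all probes, and all were higher: SAR1 probe 2, USE1 (1.90 ± 0.57), YIP3 probe 2 (1.26 ± 0.35), ERD2 probe 2 (0.61 ± 0.16), ARF2 probe 2 (0.53 ± 0.16) and BET1 probe 2 (0.51 ± 0.15, SE). Without replicate 3 of npl3 over WT 7 were called, against 28.8%, and with it turned 8, against 29.9%. For ARF2 the direct pair against WT read 0.18, and the fitted value was 0.31 and not called without the npl3 over npl3upf1 pair, where ARF2 probe 2 was at -0.84. After 15 min at 37 °C, 4 of 22 were called, against 9.51%: SAR1 probe 2, YIP3 probe 2 (1.95 ± 0.40), YIP3 probe 1 (0.89 ± 0.26) and ARF2 probe 2 (0.71 ± 0.18, SE). SAR1 probe 2 kept its call at both times in each of the 37 fits that left out 1 pair, and each of the other probes lost its call in at least 1. Without the npl3 over npl3upf1 pair, ERD2 probe 2 was at 0.43, BET1 probe 2 at 0.52 and USE1 at 1.97, and without the pair against WT, BET1 probe 2 was at 0.55, YIP3 probe 2 at 1.35 and USE1 at 1.75. At 15 min, without the pair against WT or the pair against npl3, YIP3 probe 2 was at 2.18 and 1.79, YIP3 probe 1 at 0.92 and 0.87, and ARF2 probe 2 at 0.91 and 0.57. For ARF2 at 15 min, arrays with the first strain in Cy3 alone gave 0.08 and no call.

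ERD2 took a different form in npl3upf1 at 30 °C, where its probe 2 was the higher one. In the pair against WT, ERD2 probes 1, 2 and 3 read 0.00, 0.47 and -0.24, and in npl3 over npl3upf1 they read 0.04, -0.80 and 0.27. The ERD2 contrast was fitted at 0.73 ± 0.26 over WT (SE, adjusted p = 0.0163), below the median of 0.88 over all 230 genes, and at 0.74 ± 0.25 over npl3 (SE, adjusted p = 0.0148). Both calls were lost without the npl3 over npl3upf1 pair (0.52 and 0.51) and without the pair against WT (0.74 and 0.75). At 37 °C for 15 min the npl3upf1 pair against WT had ERD2 probes at 0.45, 0.23 and 0.79. The contrast there was -0.60 ± 0.30 (SE, adjusted p = 0.11), not called and the lowest of the 230 genes.

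Over the 7 genes, 5 contrasts were called in npl3upf1 over WT at 30 °C, against 68.7% of all genes, with a median of 0.65 beside 0.88: SAR1 (1.77), YIP3 (1.56), ERD2, ARF2 (0.65) and BET1 (0.48). BET1 lost its call in 21 of the 37 fits that left out 1 pair, and ARF2 was at 0.46 and not called without the npl3 over npl3upf1 pair. At 15 min the 2 called were YIP3 (2.43) and SAR1 (1.69), against 40.9%. Set against ERD2, SAR1 alone exceeded it at 30 °C, by 1.041 ± 0.376 (SE, adjusted p = 0.0414), against 24.5% of all genes. After 15 min at 37 °C 4 did, against 62.4%: YIP3 by 3.03, SAR1 by 2.29, BET1 by 1.01 and ARF2 by 0.88. ERD2 had the lowest contrast of all genes there, so each difference was above 0 in advance.

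npl3upf1 minus npl3 at 30 °C called 5 of 22 probes, against 14.9% of all: SAR1 probe 2, ERD2 probe 2 (0.52), BET1 probe 2 (0.49), ARF2 probe 2 (0.49) and APS3 probe 2 (0.38). All 5 are second probes, which were also the higher ones over all 230 genes, with a median of 0.52 for probe 2 beside 0.00 for probe 1 and -0.20 for probe 3. The same count of 5 was called without replicate 3 of npl3 over WT and with it turned. Of these, ERD2, BET1, ARF2 and APS3 lost their call without the npl3 over npl3upf1 pair, at 0.32, 0.50, 0.23 and 0.38. USE1 was at 0.58 ± 0.55 (SE) in this comparison and was not called. Contrasts of SAR1 (1.57) and ERD2 were called, against 54.3%. At 15 min 1 probe, SAR1 probe 2, was called, against 2.67% of all, and 1 contrast, SAR1 (1.34), against 4.35%.

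npl3upf1 minus upf1 called SAR1 probe 2 alone at 30 °C, against 3.12% of all probes, and at 15 min, against 1.3%. The SAR1 contrast was also the 1 of 7 called, at 1.14 at 30 °C, against 25.7% of all genes, and at 1.41 at 15 min, against 9.57%. In the direct pair at 30 °C the SAR1 contrast was 0.76, and at 15 min there was no direct pair. In Dupf1+Dnpl3 over npl3 at 37 °C for 30 min, SAR1 probe 2 was at 0.92 in the 1 pair, with an adjusted p of 0.0912. limma called 0 of 22 probes there, against 1.17%, and 0 of 7 contrasts, against 0.87% (2 and 1 at an unadjusted p under 0.05).

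Loss of upf1 alone called none of the 8 genes. limma called 0 of 22 probes at 30 °C, against 1.5% of all, at 37 °C for 30 min, against 0.716%, and for 15 min, against 1.11%. Contrasts gave 0 of 7, against 6.96%, 0.87% and 0.435%. Unadjusted p was under 0.05 for 4 probes and 2 contrasts at 30 °C and for none at 37 °C. At 30 °C upf1 was not hybridised against WT, so its fitted values rest on pairs with npl3 and npl3upf1. The largest there was USE1, at 0.91 ± 0.70 (SE), and the ERD2 contrast was 0.88 ± 0.32 (SE, adjusted p = 0.0888). These upf1 values and counts at 30 °C were not repeated without replicate 3 of npl3 over WT or with it turned. In the upf1 over npl3 pair at 30 °C, the probe of NAM7, another name of UPF1, read -1.25. It read -2.65 and -4.24 in the upf1 pairs against WT at 37 °C. Dye-flipped arrays of the upf1 over npl3 pair correlated at -0.05 over all probes.

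The prp2-1 arrays gave 1 value per comparison, with no replicate and no test, and errors are the SD of 6 spots. SAR1 probe 2 was at 1.39 ± 0.32 over prp5-1 and at 1.502 ± 0.425 over prp8-1, the 47th and the 20th highest of the 1536 probes. SAR1 probes 1 and 3 were at -0.38 and -0.01 over prp5-1, and at -0.15 and -0.07 over prp8-1. Among the 8 genes, SAR1 probe 2 was the one probe at least 1.5-fold higher on both arrays.

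ERD2 probe 3 was at -1.95 ± 0.17 over prp5-1, the 14th lowest of all probes, and at -0.65 ± 0.28 over prp8-1. Its probe 2 was at 0.48 and 0.36, so the ERD2 contrast was 2.43 over prp5-1, the 6th highest of 230, and 1.01 over prp8-1. ERD2 thus had a positive contrast on both prp2-1 arrays and a negative fitted one in npl3 at 37 °C. In each case the value of probe 3 was farther from 0 than that of probe 2. The prp2-1 arrays differ in design, with another splicing mutant, prp5-1 or prp8-1, in place of WT. They had prp2-1 in Cy5 alone, with no dye flip. The median contrast over all 230 genes was 0.37 on each of them.

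ARF2 probe 3 read -1.369 ± 0.151 and -0.08 ± 0.24 on these arrays, USE1 -0.90 ± 0.17 and -0.18 ± 0.34, and BOS1 probe 1 -0.86 ± 0.34 and 0.16 ± 0.35. These 3 were low over prp5-1 and closer to 0 than the SD of their spots over prp8-1. YIP3, highest among the contrasts in npl3, had contrasts of 0.34 and -0.11, with spot SDs on its probe 3 of 0.95 and 1.01. Over all features, 35.2% of probes and 52.6% of contrasts passed 1.5-fold over prp5-1, and 23.6% and 44.8% over prp8-1.

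By Pearson correlation over the 37 pairs, the gene contrasts most like that of ERD2 were RPL43B (0.66), ARF2 (0.62) and RPL22A (0.60), of 229 compared. RPL43B and RPL22A encode ribosomal proteins. The other 5 secretory genes correlated with ERD2 between -0.23 and 0.24. The probes most like USE1 were HNT2 probe 2, COS8 probe 1 and STO1 probe 2, each at 0.87, of 1456 compared. The pairs share arrays, strains and the contrary replicate, so these are descriptions.

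Of 149 other secretory genes listed, 17 are on the array, with 39 probes. After 30 min at 37 °C, 7 of the 39 were called higher and 1 lower in npl3 over WT, in 6 genes, against 26.4% of all probes called in either direction. SFT1, a Golgi SNARE, was at 0.64 and 0.41 on probes 2 and 1, and NYV1, a SNARE of vacuole fusion, at 0.38 and 0.31. TRS20, a subunit of the TRAPP tethering complex, was at 0.31 on probe 1, YOP1, a protein that shapes tubular endoplasmic reticulum, at 0.32 on probe 1, and ERV41, a COPII vesicle protein, at 0.30 on probe 2. SEC14, the phosphatidylinositol transfer protein of the Golgi, was the lower one, at -0.49 on probe 1, below 0 in 6 of 6 pairs. For these 17 genes 1 probe was called at 30 °C, against 4.3% of all probes, 0 at 15 min, against 4.17%, and 7, all higher, in npl3upf1 over WT at 30 °C, against 21.5%. Of the 11 with 3 probes, 3 contrasts were called higher at 37 °C for 30 min, against 53.5% of all 230 genes, with a median of 0.26 beside 0.44. In npl3upf1 over WT at 30 °C 8 were called higher, against 68.7%, with a median of 0.79 beside 0.88.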

How the data were processed

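Two-colour arrays were measured in 73 deletion-strain and 2 prp2-1 hybridisations. The deposited values are ratios per spot, on a scale the table does not state. They were taken as log2 from the values themselves, which is an inference. How the authors corrected background and normalized before depositing these log2 values is not given in the sources used here. Each array's median was close to 0 (-0.03 to 0.03), and no array was centred again.

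Spots were averaged per probe, then dye-flipped arrays per extract pair. Ratios of both orientations were read as the first strain over the second, and neither was turned. The correlation of flipped arrays over all probes had a median of 0.30 and was below 0 in 10 of 36 pairs. limma 3.58.1 in R 4.3.3 fitted 17 strain coefficients to 37 pairs (20 residual degrees of freedom), for probes with values in at least 50% of pairs, and adjusted by Benjamini-Hochberg. Code was tested on simulated data. Gene names came from the platform annotation, and all 1457 named probes matched the reference gene table. No sequences are shown.

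All members are named. Of other secretory genes, those called in npl3 at 37 °C for 30 min are named, and for ERD2 and USE1 the 3 most alike. The members and lists were chosen with earlier results of these data known.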

Additional observations from a re-analysis of the deposited data

Results flagged for a closer look

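In groups of 6 or 7 pairs, 58 sets of member values were searched for a pair that stood apart from the others by Dixon's test, and 7 were found. Chance marks about 1 in 20 sets. The contrasts of SAR1, BET1 and ARF2 at 30 °C were each lowest, at -0.45, -0.24 and -0.42, in the pair labelled npl3 over WT, replicate 3, whose NPL3 probe went against its label. BET1 probe 1 was highest at 30 °C, at 0.27, in replicate 6, and APS3 probe 3 was lowest, at -1.02, in replicate 7. At 37 °C for 30 min YIP3 probe 3 was lowest, at -2.17, in replicate 6, which rests on 4 spots of 1 array, and BOS1 probe 1 was highest, at 0.21, in replicate 1.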

How the results depend on the processing

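Counts here are of called members, in npl3 over WT unless another comparison is named, and times are at 37 °C. Brought to one scale, arrays gave 3 probes for npl3upf1 minus npl3 at 30 °C, 0 contrasts at 15 min and an ERD2 contrast of -0.69 there. Arrays with the first strain in Cy5 alone gave 4 probes at 37 °C for 30 min, 2 at 15 min, 1 and 2 for npl3upf1 minus npl3 at 30 °C and 15 min, 1, 1 and 0 contrasts at 30 °C, 30 min and 15 min, ERD2 contrasts of -0.20 and -0.69, and 2 and 2 members (100 genes of all) called against ERD2. Cy3 alone gave 3 probes and 1 contrast at 30 °C and 1 probe for npl3upf1 minus npl3. Each comparison on its own pairs gave 0, 4 and 3 probes at 30 °C, 30 min and 15 min, 1 contrast at 30 min, an ERD2 contrast of -0.46 (adjusted p = 0.0883) and 2 members called against ERD2. Batch as a random block (correlation 0.073 for probes) gave 3 probes, 0 contrasts and an ERD2 contrast of -0.77 at 15 min. Turning replicate 3 gave 3 probes and 3 contrasts at 30 °C. Probe 2 minus probe 1 gave 1 contrast at 15 min. Probe 1 minus probe 3 gave 1 contrast at 30 min and 0 at 15 min, ERD2 values of -0.12 and -0.26, 1 and 1 members and 38 genes called against ERD2, and turned the SAR1 contrast at 30 min to -0.15. Leaving out 1 pair, others than npl3 against WT added after the data were seen, gave 0 to 3 probes at 30 °C, 5 to 7 at 30 min, 0 to 6 at 15 min, and 1 to 6 and 0 to 1 for npl3upf1 minus npl3 at 30 °C and 15 min. It gave 0 to 3, 1 to 3 and 0 to 2 contrasts, ERD2 contrasts of -0.63 to -0.36 and -1.05 to -0.61, SAR1 probe 2 at 1.16 to 1.24 for npl3upf1 minus npl3 at 15 min, and 2 to 6 members called against ERD2 at 15 min. The temperature difference called 0 members under each alternative. Causes of these changes were not tested. Replicate numbers were given in sample order and pair no samples, so no analysis paired by replicate was run, and batch was fitted as a block instead. Within batches, the 2 temperatures were set side by side for the ERD2 contrast alone, without a test. Comparisons with 1 or 2 pairs borrow their spread from the other groups.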
